A study of Mus musculus with 24 samples.

Results

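A set of 37 mouse genes that are read most in macrophages and in cells that present antigen was followed in spermatogonia sorted from the testis. The genes were chosen by symbol from a fixed list, and all 37 were present, among 23177 genes in one table of expression values and 21688 in the other. Under their own symbol 36 were found in each table, and Adgre1 (the F4/80 antigen) was matched by its Ensembl identifier because it is listed under its older symbol Emr1. The 24 RNA-seq libraries came from testes of C57BL/6J mice at postnatal day 7, with 3 libraries for each of 8 groups and the testes of 3 mice pooled for each isolation. Cells were sorted with magnetic beads into a THY1+ fraction, named undifferentiated spermatogonia (uSPG), and a KIT+ fraction, named differentiating spermatogonia (dSPG). In the Zbtb16 table, mice homozygous for the luxoid (lu) allele of Zbtb16 (null), an allele carried by every cell of the animal, were set against WT. The study's methods name WT and heterozygous littermates as controls of the null mice, whereas the labels of these libraries say WT. In the Sox3 table, mice with floxed Sox3 and a Cre driven from Ddx4 (Vasa), which removes Sox3 from germ cells (cKO), were set against WT. Nothing in the labels says whether the 3 libraries of a group came from separate litters or days, so that p-values measure the spread between these isolations.

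Macrophages are resident cells of the testis from before birth, lying between the tubules beside the Leydig cells and against the tubule wall near the spermatogonia. They depend on signals through the receptor CSF1R and on the transcription factor PU.1, which Spi1 encodes. Resident macrophages secrete the 3 chains of complement C1q, take up debris through scavenger receptors, and signal through Fc receptors with the adaptors FcRγ and DAP12. Those that carry MHC class II present peptides that the protease cathepsin S helps to prepare. The libraries are bulk samples, so fewer cells of a type and less RNA per cell cannot be told apart in any comparison here.

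Values are FPKM, sequenced fragments scaled to the length of the transcript and to the mapped reads of the library, so levels are per length. The targeted genes were low where the labels say so. Zbtb16 was at 52.1 ± 8.93 FPKM (SD, n = 3) in WT and 17.1 ± 1.33 in null THY1+ libraries, and Sox3 was at 6.28 to 24.4 FPKM in WT libraries of the Sox3 table and at 0 to 0.0820 in cKO libraries. The sorting markers matched the fraction labels in the Zbtb16 table, with Thy1 at 3.29 to 4.67 FPKM in THY1+ and 0.156 to 0.666 in KIT+ libraries. In the Sox3 table they matched in cKO libraries and went against the labels in WT libraries. There, WT labelled THY1+ had Thy1 at 0.213 to 0.254 FPKM and Kit at a mean of 57.9, whereas WT labelled KIT+ had Thy1 at 3.59 to 4.06 and Kit at a mean of 15.3. These libraries were not regrouped and are called the WT libraries labelled THY1+ or KIT+. Ddx4, a germ cell helicase, was at 189 ± 12.4 FPKM in WT THY1+ and 158 ± 3.12 in WT KIT+ libraries, so both fractions held germ cell RNA. Read totals, estimated from the steps between low values, were 25.92 to 35.22 M reads (M, mega) in the Zbtb16 table, 28.13 to 31.93 M for replicate 1 of the Sox3 table and 11.00 to 14.91 M for its replicates 2 and 3.

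The C1q genes lie next to each other on chromosome 4 (mm10, minus strand), with C1qb at chr4:136880129-136886187, C1qc at chr4:136889804-136893065 and C1qa at chr4:136895917-136898803. Fcgr2b, Fcgr3 and Fcer1g lie on chromosome 1 (chr1:170958617-170976547, chr1:171051174-171064935 and chr1:171229572-171234365). H2-Ab1 (chr17:34257689-34269419), H2-Aa (chr17:34282744-34287823) and H2-Eb1 (chr17:34305867-34316674) share the major histocompatibility complex on chromosome 17 with Aif1 and Lst1. Reads of Lyz2 and its paralog Lyz1, of Fcgr2b and Fcgr3, and of the H2 genes can be shared between near-identical copies, so their values are less certain than the others.

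Promoters are shown for 4 members at the ends of what follows: C1qb and C1qc, which kept among the smallest shares of their THY1+ level in KIT+, H2-Aa, which kept more of its level there, and Lyz2, the member with the highest level. RefSeq promoters (GRCm38.p6, 250 bases before to 50 after the start) were matched for 27 of the 37 genes, with 33 promoters. The letters GAGGAA, a core that PU.1 binds, and CCAAT, a box found in MHC class II promoters, were searched on both strands (as TTCCTC and ATTGG on the other). Capitals mark a match. The C1qb and C1qc promoters (chr4:136886151-136886450 and chr4:136892865-136893164, minus strand) each hold 1 match to the first. The H2-Aa promoter (chr17:34287774-34288073, minus strand) holds 1 match to the second, and the Lyz2 promoter (chr10:117282223-117282522, minus strand) holds neither. Each is printed 5′ to 3′ on the gene's strand.
C1qb: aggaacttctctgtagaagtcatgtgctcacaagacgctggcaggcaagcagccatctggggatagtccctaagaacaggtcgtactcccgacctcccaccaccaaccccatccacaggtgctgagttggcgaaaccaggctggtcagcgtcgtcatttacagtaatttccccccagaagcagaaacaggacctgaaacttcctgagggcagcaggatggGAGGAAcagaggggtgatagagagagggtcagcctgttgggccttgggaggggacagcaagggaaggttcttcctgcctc
C1qc: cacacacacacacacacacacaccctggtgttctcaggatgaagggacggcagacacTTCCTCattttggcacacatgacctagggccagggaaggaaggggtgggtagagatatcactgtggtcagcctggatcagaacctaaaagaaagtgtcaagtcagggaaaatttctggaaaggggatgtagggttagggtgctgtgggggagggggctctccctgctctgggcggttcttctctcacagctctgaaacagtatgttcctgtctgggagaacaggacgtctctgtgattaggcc
H2-Aa: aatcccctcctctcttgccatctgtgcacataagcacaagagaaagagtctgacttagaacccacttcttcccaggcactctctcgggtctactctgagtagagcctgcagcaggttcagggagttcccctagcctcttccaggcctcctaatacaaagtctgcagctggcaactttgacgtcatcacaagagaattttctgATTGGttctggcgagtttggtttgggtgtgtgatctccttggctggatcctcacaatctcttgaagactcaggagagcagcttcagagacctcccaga
Lyz2: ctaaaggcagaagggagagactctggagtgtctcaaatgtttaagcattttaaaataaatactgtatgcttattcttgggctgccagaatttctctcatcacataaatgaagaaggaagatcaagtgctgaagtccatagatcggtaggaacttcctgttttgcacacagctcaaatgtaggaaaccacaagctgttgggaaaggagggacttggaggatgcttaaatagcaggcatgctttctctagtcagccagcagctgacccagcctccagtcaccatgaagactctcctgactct
GAGGAA was present in 17 of the 33 member promoters (51.5%), from 15 of 27 genes, and in 28.3% of all 32851 promoters in the table. CCAAT was present in 14 of 33 (42.4%) and in 37.4% of all. A match is a stretch of letters and not a measured binding site, and no match says only that these letters are absent from this window.

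Most members were well above 1 FPKM in WT THY1+ libraries. Lyz2, which encodes lysozyme, led at 291 FPKM as the mean of 3 libraries, followed by Mrc1 (the mannose receptor CD206) at 130, Pf4 at 127, C1qa at 124 and Tyrobp (DAP12) at 120. Of 37 members, 36 had a mean of at least 1 FPKM and 22 of at least 10 FPKM. The lowest was Cd163, a scavenger receptor for haemoglobin complexes, at 0.854. Neighbours in this order did not separate: Mrc1 ranged from 111 to 146 FPKM, Pf4 from 103 to 142 and C1qa from 116 to 128. Summed over the 37 genes, the level was 1641 ± 134 FPKM (SD, n = 3), or 0.337% ± 0.0492 of all FPKM in the library. In WT KIT+ libraries 5 members had a mean of at least 1 FPKM, namely Irf8 at 3.31, Cd68 at 3.04, Mpeg1 at 2.24, Csf1r at 2.14 and Folr2 at 1.29.

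**Figure D1:**
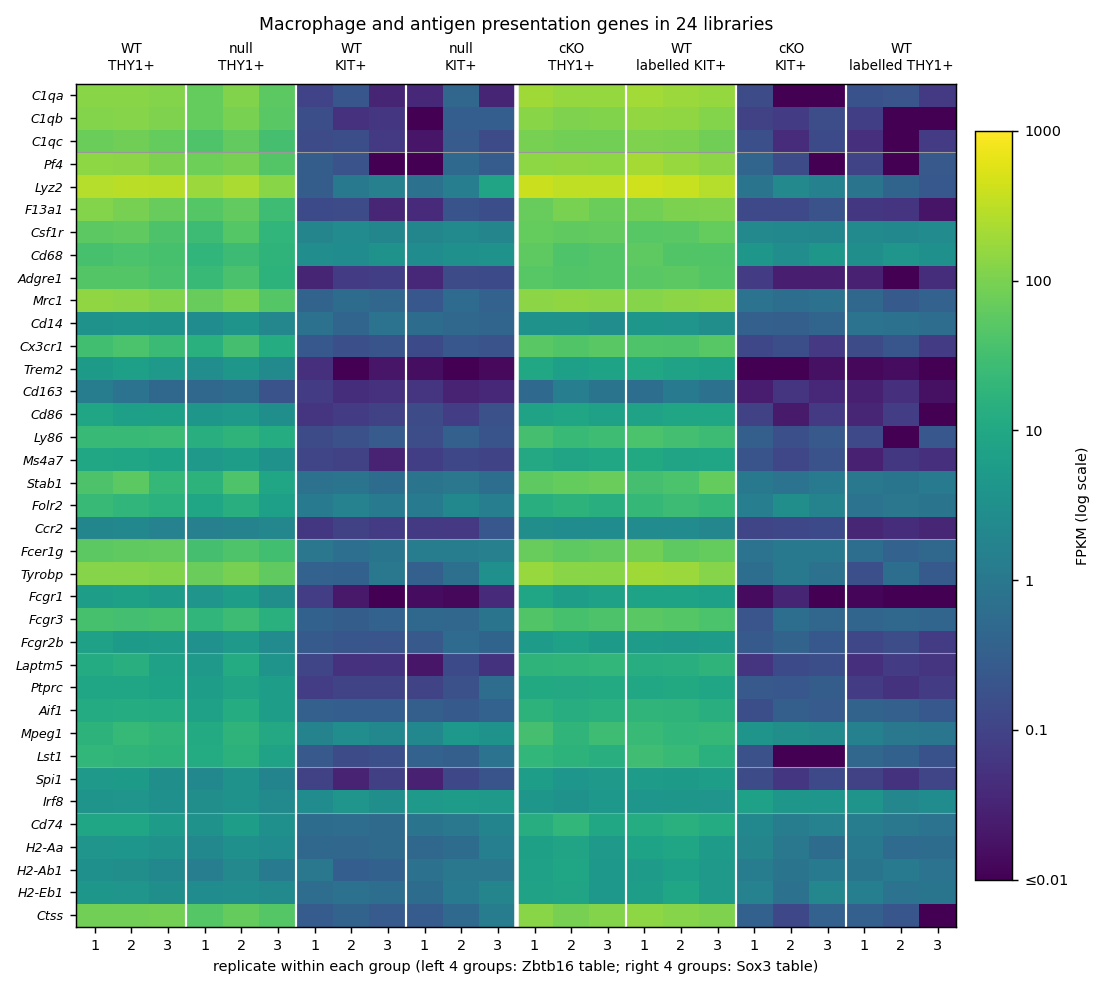
Level of each of the 37 members (rows, grouped by role) in each of the 24 libraries (columns, replicates 1 to 3 of 8 groups), as FPKM on a logarithmic colour scale. Members other than Irf8 are brighter in the 4 groups with high Thy1 (WT and null THY1+, cKO THY1+ and WT labelled KIT+). They are darker in the 4 with low Thy1, where Cd68, Mpeg1 and Csf1r still have means above 1 FPKM.

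The first question was how the members divide between the sorted fractions. The members and the lists of other genes were chosen with earlier results of these data known. The calls and p-values between fractions therefore describe these lists and are not independent support for them. In WT libraries of the Zbtb16 table, 36 of 37 members were called lower in KIT+ than in THY1+ and none higher, where a call is a Benjamini-Hochberg adjusted p of at most 0.05 in limma and a change of at least 1.5-fold. Over all 22374 genes tested, 14.0% were called lower and 7.21% higher. The median difference of the members was -5.55 on the log2(FPKM + 0.1) scale, against -0.028 for all genes. As a share of the WT THY1+ mean, the WT KIT+ mean had a median of 1.01% and ran from 0.0785% (C1qb) to 88.4% (Irf8), with 18 members under 1% and 31 under 10%.

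The complement C1q chains, which together make the recognition molecule of the classical pathway, were among the members that kept the smallest share of their THY1+ level in KIT+ libraries. C1qa was at 128, 127 and 116 FPKM in WT THY1+ replicates 1 to 3 and at 0.101, 0.219 and 0.0326 in WT KIT+. These KIT+ values stand for 3, 8 and 1 reads, where 3 reads are worth 0.0819 to 0.101 FPKM. The groups were far apart, and the difference was -9.24 ± 0.50 (log2, SE; limma adjusted p = 2.75e-07). C1qb differed by -9.30 ± 0.47 (adjusted p = 1.48e-07) and C1qc by -8.40 ± 0.36 (adjusted p = 5.79e-08).

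All 17 surface and secreted macrophage genes were called lower in KIT+. Lyz2 was at 281, 301 and 292 FPKM in WT THY1+ and at 0.305, 1.03 and 1.52 in WT KIT+, with a difference of -8.33 ± 0.71 (limma adjusted p = 8.31e-06). Pf4 (platelet factor 4), F13a1 (coagulation factor XIII) and Adgre1 left 0.129%, 0.112% and 0.150% of their THY1+ level in KIT+. These shares rest on low values, with Pf4 at 0 to 0.299 FPKM and Adgre1 at 0.0324 to 0.0835 in WT KIT+ libraries. Others in the role left far more: Cd14, the lipopolysaccharide co-receptor, left 17.7%, Cd68, a lysosomal glycoprotein, 8.33%, Cd163 6.84%, Folr2 (folate receptor beta) 6.63% and Csf1r 4.18%. Cd68 was at 35.2, 38.9 and 35.5 FPKM in THY1+ and at 2.87, 2.65 and 3.61 in KIT+, and it still stood above 2 FPKM in each KIT+ library.

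The Fc receptors and their adaptors were called lower in 5 of 5 cases. Tyrobp fell from 121, 126 and 114 FPKM in WT THY1+ to 0.373, 0.353 and 1.02 in WT KIT+ (-7.60 ± 0.59, limma adjusted p = 4.16e-06). Fcer1g, which encodes FcRγ, went from 54.7, 60.7 and 62.8 FPKM to 0.964, 0.675 and 0.889 (-5.99 ± 0.15, adjusted p = 3.13e-09). The inhibitory receptor gene Fcgr2b left 3.75% in KIT+, and the activating receptor genes Fcgr1 and Fcgr3 left 0.554% and 0.999%.

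Among the 5 pan-leukocyte and intracellular genes, all 5 of which were called lower, Mpeg1 stood out by what remained. It encodes the pore-forming protein perforin-2 and was at 17.2, 22.0 and 18.5 FPKM in WT THY1+ and 1.76, 2.77 and 2.20 in WT KIT+, which is 11.7% of the THY1+ mean. Ptprc (CD45), the marker of all leukocytes, left 1.13%, Laptm5 0.647% and Aif1 (IBA1) 2.70%. Lst1 had at most 3 reads in each WT KIT+ library and was at least 80.2-fold lower there, taken against the FPKM of 3 reads per library.

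Of the transcription factors, Spi1 was called lower and Irf8 was not called. Spi1 was at 4.77, 5.24 and 3.03 FPKM in WT THY1+ and 0.0911, 0.0316 and 0.0879 in WT KIT+ (-4.69 ± 0.36, limma adjusted p = 3.50e-06). Irf8, an interferon regulatory factor needed by monocytes and dendritic cells, was at 3.85, 4.09 and 3.30 FPKM in WT THY1+ and 2.76, 4.08 and 3.10 in WT KIT+, and these values overlap (-0.19 ± 0.17, limma adjusted p = 0.459). In null libraries Irf8 was higher in KIT+ (4.88, 5.89 and 5.12 FPKM) than in THY1+ (2.92, 3.50 and 2.51), with no overlap (0.82 ± 0.17, limma adjusted p = 0.00304).

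The 4 class II genes were lower in KIT+ but kept a larger share than Ctss did. Cd74, the invariant chain, was at 8.69, 8.69 and 5.48 FPKM in WT THY1+ and 0.597, 0.625 and 0.528 in WT KIT+, so 7.66% remained. H2-Aa, H2-Ab1 and H2-Eb1, which encode the class II chains, kept 12.2%, 19.8% and 17.3%, and each was called lower. Ctss (cathepsin S) kept 0.365%, at 87.4, 86.3 and 88.2 FPKM in WT THY1+ and 0.284, 0.398 and 0.274 in WT KIT+ (-7.72 ± 0.36, limma adjusted p = 9.39e-08). The 4 class II genes without Ctss summed to 18.2 ± 3.41 FPKM in WT THY1+, which is 5.74% ± 0.753 of the C1q sum of 316 ± 21.7 FPKM (SD, n = 3).

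In null libraries 35 members were called lower in KIT+ than in THY1+ and 1, Irf8, higher, against 16.0% and 13.2% of all genes tested, with a median difference of -4.39. H2-Ab1 was not called, at 1.37, 2.24 and 1.16 FPKM in null THY1+ and 0.753, 1.02 and 0.960 in null KIT+ (-0.70 ± 0.36, limma adjusted p = 0.152). The median share that remained in KIT+ was 3.57%, from 0.223% (C1qa) to 178% (Irf8), and 11 members were under 1%. In cKO libraries 36 members were called lower in KIT+ (12.2% of all genes), Irf8 again being the exception (0.30 ± 0.25, limma adjusted p = 0.396), and the median share was 1.55%. In WT of the Sox3 table the labelled fractions ran the other way: 36 members were called higher in the libraries labelled KIT+ and none lower (13.1% and 6.53% of all genes), with Irf8 not called (0.58 ± 0.25, limma adjusted p = 0.106). For 36 members the labelled difference was thus opposite in WT and cKO with no overlap, as it was for 25.0% of all genes. The group low in Thy1 kept a median of 0.696% there. C1qb had at most 3 reads in each low-Thy1 library of both genotypes, and was at least 621-fold lower in cKO KIT+ and at least 853-fold higher in the WT libraries labelled KIT+.

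**Figure D2:**
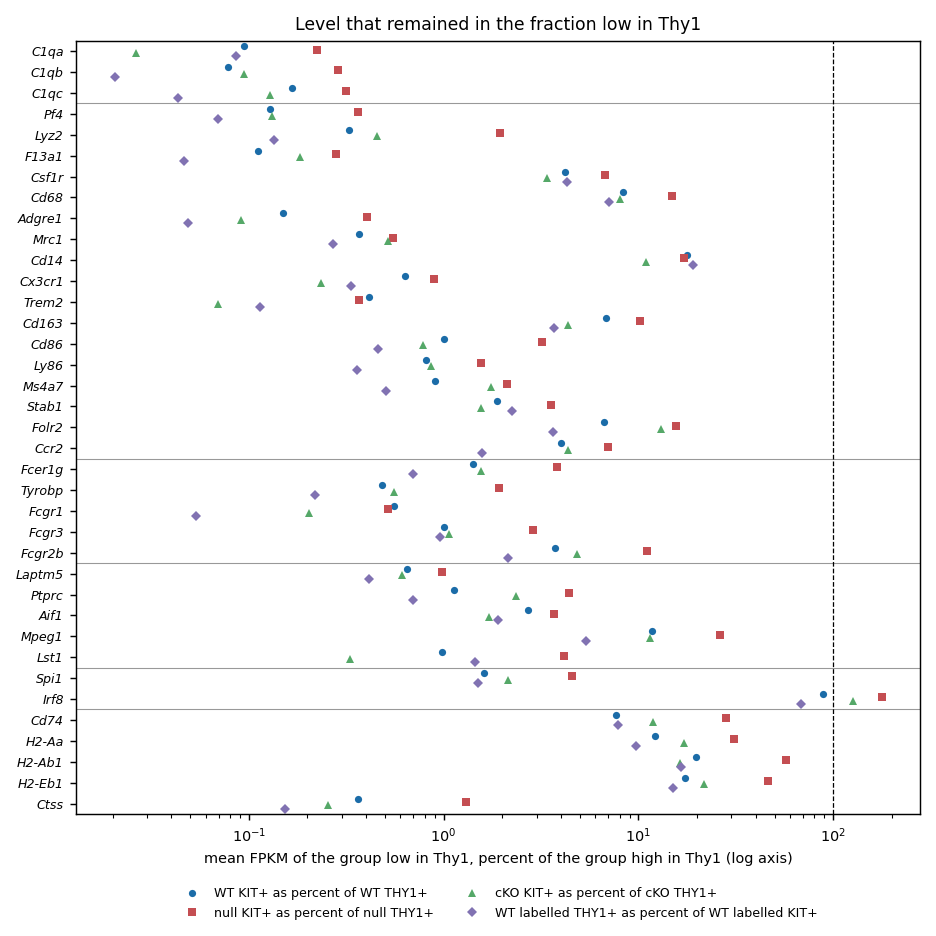
Mean FPKM of each member in the group low in Thy1 as a percent of its mean in the group high in Thy1 (logarithmic axis), for 4 pairs of groups; the dashed line marks equal levels. C1q genes lie at 0.0205% to 0.316%, the class II genes Cd74, H2-Aa, H2-Ab1 and H2-Eb1 at 7.66% to 57.4%, and Irf8 at 68.1% to 178%. The lowest share, 0.0205%, is that of C1qb in WT of the Sox3 table. It rests on at most 3 reads per library, so only a bound holds for it.

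Other genes of the same pathways, from lists that hold no member, were counted in the WT comparison of KIT+ with THY1+. Among 18 other genes of resident macrophages 16 were called lower, among them Cbr2 (-7.28), the scavenger receptor Msr1 (-6.01) and Apoe (-3.78), which was at 369 ± 14.7 FPKM in WT THY1+. Of 15 genes of ITAM and leukocyte kinase signalling 14 were called lower, and of 18 chemokines and receptors 16, led by Ccl7 (-7.64) and Ccl2 (-7.38). MHC class I genes, which most cells express, split: 9 of 16 were called lower, including B2m (-2.09), and 7 were not called. Of the other complement genes 6 of 17 were called lower, among them C3ar1 (-6.53), and Cd59a higher. Other genes of the class II pathway gave 4 lower and 1 higher of 10, the CSF and IL-34 ligands and receptors 3 lower of 7, and the other myeloid transcription factors 7 lower and 1, Cebpa (1.06), higher of 13.

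Markers of other cell types moved with the fractions as well. In WT libraries all 5 mast cell genes tested, 7 of 8 T cell genes and 5 of 6 NK cell genes were called lower in KIT+, with mast cell genes summing to 26.7 to 47.7 FPKM in THY1+ and 0.931 to 1.31 in KIT+. All 6 Leydig cell genes were called higher in KIT+, where they summed to 1215 to 2272 FPKM against 83.1 to 119 in THY1+. The 6 germ cell genes summed to 966 to 1147 FPKM in WT THY1+ and 984 to 1188 in WT KIT+, with 1 called, Stra8, higher. Of the dendritic cell genes 2 of 7 were called lower, of monocyte genes 2 of 6, of B cell genes 3 lower and 1 higher of 6, of Sertoli cell genes 1 each way of 7, of endothelial genes 1 lower of 6, and of neutrophil (5 tested) and red cell (4 tested) genes none. Their part in the members' difference was not tested.

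The 10 other genes whose pattern was most like the members over the 12 libraries of the Zbtb16 table were Ctsc, Ms4a6d, Dock2, AF251705, Cyth4, Tlr8, Fcrls, Tlr13, Tlr7 and Clec4a3. Their Pearson r with the mean log2 level of the 35 members at or above a mean of 1 FPKM was 0.9971 to 0.9989. These values describe 12 libraries that fall into fractions with a large gap, so they say little beyond it. Fcrls, an Fc receptor-like gene known from microglia, was at 52.9 FPKM in WT THY1+ and 0.0512 in WT KIT+, and Ctsc at 34.3 and 0.776. Among the members themselves r with that mean was -0.348 for Irf8, 0.857 for H2-Ab1 and at least 0.938 for the others.

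The second question was whether the members differed between Zbtb16 null and WT. In THY1+ libraries all 37 members had a lower fitted level in the null, with differences from -0.12 (Ccr2) to -1.04 (F13a1) and a median of -0.76, against a median of -0.027 over all genes. Of these, 2 were called lower, Cd68 and Fcer1g, and none higher, where 1.26% of all 22374 genes were called lower and 2.71% higher. At an unadjusted p under 0.05 there were 19 members and 23.8% of all genes. The 3 null values lay below all 3 WT values for 22 of 37 members, and for 14.1% of all genes. The numbers of the replicates paired these isolations by the correlation of their deviations, though not those of every pair of groups in the fit. With the replicate as a block over all 4 groups, 12 members were called lower, against 4.49% of all genes in that fit. Cd68 and Fcer1g were among them, the others being F13a1, Csf1r, Mrc1, Trem2, Cd163, Cd86, Ly86, Ms4a7, Stab1 and Folr2.

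Cd68 was at 35.2, 38.9 and 35.5 FPKM in WT THY1+ and at 19.5, 26.8 and 17.7 in null THY1+, so each null value was below each WT value. The difference was -0.79 ± 0.16 (limma adjusted p = 0.0208). Fcer1g was at 54.7, 60.7 and 62.8 FPKM in WT and at 33.2, 41.9 and 31.3 in null, again with no overlap, and differed by -0.75 ± 0.15 (limma adjusted p = 0.0173). Both calls depended on single libraries. Cd68 was not called without WT THY1+ replicate 1 or 2 or null THY1+ replicate 1 or 3 (adjusted p = 0.0663 to 0.0958), nor Fcer1g without WT replicate 2 or 3 or null replicate 1 or 3 (adjusted p = 0.0527 to 0.0852).

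The spread between null libraries was wide and was shared by the members. As a median over members, null THY1+ replicates 1, 2 and 3 stood at 55.9%, 82.2% and 44.1% of the WT mean, and the WT replicates at 103%, 105% and 89.9%. Null replicate 2 was the highest of its group for 36 of 37 members and replicate 3 the lowest for 34. The median coefficient of variation between replicates was 32.4% in null and 12.3% in WT THY1+ libraries. Without null replicate 2, 11 members were called lower, against 1.56% of all genes in that fit, and without WT replicate 2, null replicate 1 or null replicate 3 none was called.

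**Figure D3:**
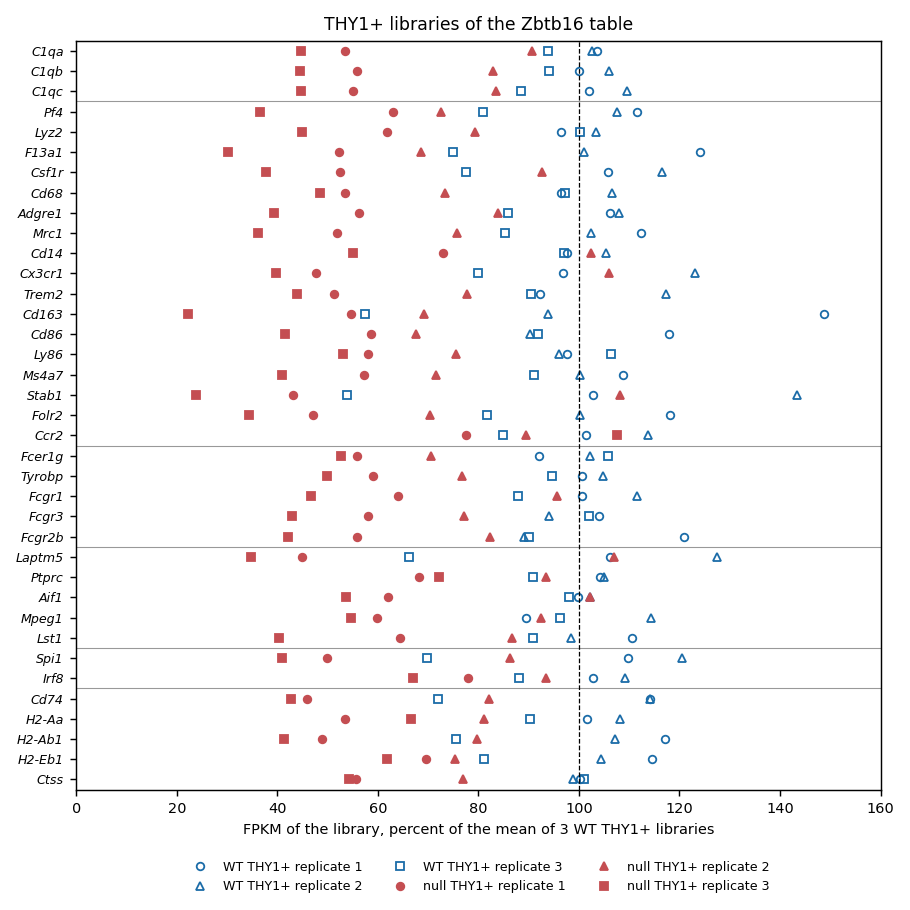
FPKM of each member in each THY1+ library of the Zbtb16 table as a percent of the mean of the 3 WT THY1+ libraries (dashed line); open symbols are WT, filled symbols null, and shapes are replicates. Null replicate 1 runs from 43.2% to 78.0% and replicate 2 from 67.6% to 108%, and replicate 3 has the lowest median, 44.1%.

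The C1q chains were not called. C1qa was at 66.1, 112 and 55.4 FPKM in null THY1+ against 116 to 128 in WT (-0.73 ± 0.50, limma adjusted p = 0.399). C1qb and C1qc differed by -0.76 ± 0.47 and -0.75 ± 0.36 (adjusted p = 0.346 and 0.234). For all 3 chains every null library was below every WT library, though null replicate 2 was close. Lyz2 was at 180, 231 and 131 FPKM in null and 281, 301 and 292 in WT (-0.73 ± 0.71, adjusted p = 0.565).

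In the surface and secreted role the differences were -0.41 (Cd14) to -1.04 (F13a1), apart from Ccr2. Folr2 was at 23.0, 19.5 and 15.9 FPKM in WT and 9.15, 13.7 and 6.68 in null, with no overlap (-1.02 ± 0.28, limma adjusted p = 0.0628). Mrc1 was at 146, 133 and 111 FPKM in WT and 67.5, 98.5 and 47.1 in null (-0.93 ± 0.29, adjusted p = 0.0878). Neither passed the threshold, and with the replicate block both did (adjusted p = 0.0104 for Folr2 and 0.0210 for Mrc1). Csf1r overlapped, at 54.3, 59.8 and 39.8 FPKM in WT and 26.9, 47.5 and 19.4 in null (-0.79 ± 0.28, adjusted p = 0.123). Ccr2, a chemokine receptor of monocytes, stood apart: it was at 1.96, 2.20 and 1.64 FPKM in WT and 1.5, 1.73 and 2.08 in null, and its highest null value came from replicate 3, the lowest library for most others (-0.12 ± 0.26, adjusted p = 0.804).

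Tyrobp, at 74.5 ± 16.5 FPKM (SD, n = 3) in null and 120 ± 5.85 in WT THY1+, with no overlap, was not called (-0.71 ± 0.59, limma adjusted p = 0.491), nor was Fcgr3 (-0.79 ± 0.24, adjusted p = 0.0815). Mpeg1 overlapped, at 11.5, 17.8 and 10.5 FPKM in null and 17.2, 22.0 and 18.5 in WT (-0.56 ± 0.28, adjusted p = 0.242). Ptprc was closer still, at 5.95, 8.14 and 6.29 FPKM in null and 9.08, 9.15 and 7.92 in WT (-0.37 ± 0.36, adjusted p = 0.567). Spi1 was at 2.17, 3.75 and 1.78 FPKM in null and 4.77, 5.24 and 3.03 in WT (-0.77 ± 0.36, adjusted p = 0.216), and Irf8 differed by -0.33 ± 0.17 (adjusted p = 0.270). Class II genes were not called, from -0.51 (H2-Eb1) to -0.83 (Cd74), and Ctss was at 48.5, 67.2 and 47.3 FPKM in null and 86.3 to 88.2 in WT (-0.70 ± 0.36, adjusted p = 0.263).

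**Figure D4:**
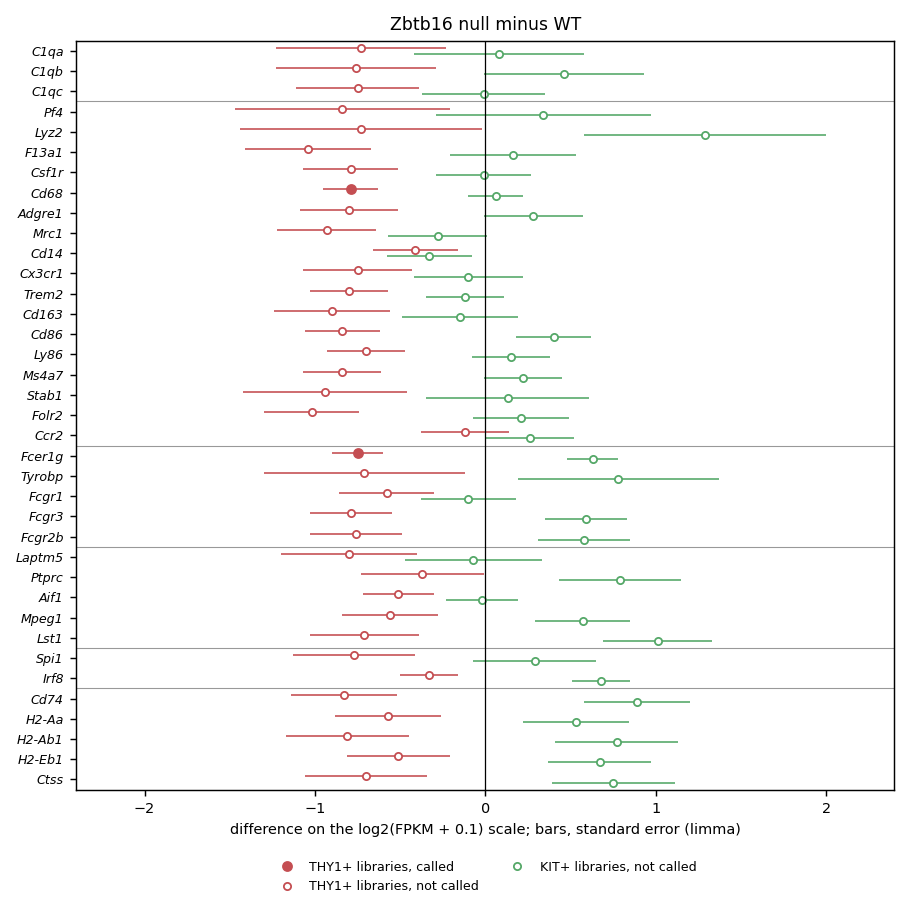
Difference of each member between null and WT on the log2(FPKM + 0.1) scale in THY1+ (red) and KIT+ (green) libraries, with limma standard errors as bars; filled points are called. All 37 THY1+ differences are below 0, Cd68 (-0.79) and Fcer1g (-0.75) being called, and 27 of 37 KIT+ differences are above 0 with none called.

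Sums and ratios within the set were compared as values with no test. The summed FPKM of the members was 988 ± 311 in null and 1641 ± 134 in WT THY1+ libraries (SD, n = 3), which is 0.198% ± 0.0773 and 0.337% ± 0.0492 of all FPKM. The class II sum was 5.88% ± 0.706 of the C1q sum in null and 5.74% ± 0.753 in WT, a gap smaller than the spread between replicates. Ccr2 was 10.6% ± 5.78 of Cx3cr1, the fractalkine receptor of resident macrophages, in null and 6.21% ± 0.458 in WT. In the Sox3 table the class II sum was 9.25% ± 3.30 of the C1q sum in cKO THY1+ and 7.96% ± 1.25 in the WT libraries labelled KIT+.

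Some genes of the same pathways outside the set were also called in null THY1+ libraries, where 1.26% of all genes were called lower. Of 18 other resident macrophage genes 5 were called lower, namely Timd4 (-1.07), Msr1 (-0.85), Apoe (-0.80), Hpgds (-0.78) and Gpr34 (-0.77), with a median of -0.79 over the 18. Lyve1, a hyaluronan receptor of a macrophage subset and of lymph vessels, was at 3.88, 4.29 and 4.23 FPKM in WT and 3.76, 4.28 and 4.32 in null, which overlap. Of 18 chemokines and receptors Ccl24 (-1.58) and Ccl9 (-0.76) were called lower, and 1 gene each was called lower among 15 ITAM signalling genes (Btk), 17 other complement genes (C3ar1), 13 other myeloid transcription factors (Zeb2), 10 other class II genes (Ifi30) and 7 CSF and IL-34 genes (Csf2). None of 16 MHC class I genes was called, and their median was -0.30.

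Markers of other cells differed between the same libraries. Mast cell genes summed to 26.7 to 47.7 FPKM in WT THY1+ and 9.87 to 19.5 in null, with Cpa3 and Mcpt4 of 5 called lower. T cell genes summed to 13.9 to 15.5 and 10.6 to 11.6 FPKM, with Cd28 of 8 called lower, and Leydig genes to 83.1 to 119 and 49.8 to 79.6, with none of 6 called. The germ cell sum was 966 to 1147 FPKM in WT and 1065 to 1373 in null, also with none of 6 called. Treml4 of 6 monocyte genes was called higher, and none was called among B cell, NK cell, dendritic, neutrophil, red cell, Sertoli or endothelial genes. The part of these cells in the members' difference was not tested.

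In KIT+ libraries none of the members was called between null and WT, where 0.192% of all genes were called higher and 0.0670% lower. At an unadjusted p under 0.05 there were 7 members and 17.3% of all genes, and 27 of 37 lay above 0 with a median of 0.28, against 0.006 over all genes. The 3 null values lay above all 3 WT values for 5 members, Fcer1g, Fcgr3, Lst1, Irf8 and Cd74, and for 8.73% of all genes. Irf8 was at 2.76, 4.08 and 3.10 FPKM in WT and 4.88, 5.89 and 5.12 in null (0.68 ± 0.17, limma adjusted p = 0.151). Fcer1g was at 0.964, 0.675 and 0.889 FPKM in WT and 1.25, 1.30 and 1.51 in null (0.63 ± 0.15, adjusted p = 0.129). With the replicate as a block over all 4 groups, these 2 genes were called higher (limma adjusted p = 0.0237 and 0.0476), against 1.57% of all genes in that fit. Null and WT KIT+ libraries passed the pairing check, but not every pair of groups under that block did.

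One null KIT+ library stood apart in markers of another cell. Neutrophil genes summed to 146 FPKM in replicate 3 against 2.64 and 2.23 in replicates 1 and 2, with S100a8, a neutrophil calcium-binding protein gene, at 61.4 FPKM, and 5 of the 6 genes found in the table were at a mean of at least 1 FPKM in the group. Without this library none of the members was called either. In it Lyz2 was at 8.40 FPKM against 0.761 and 1.38 in the other null KIT+ libraries, Tyrobp at 3.26 against 0.342 and 0.712, and Ptprc at 0.618 against 0.107 and 0.172. The neutrophil sum in WT KIT+ libraries was 2.11, 2.10 and 16.6 FPKM. Leydig genes summed to 2045 to 3122 FPKM in null and 1215 to 2272 in WT KIT+ libraries. Their part in these levels was not tested.

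The difference between the genotype effects of the fractions was tested as an interaction (the null minus WT difference in KIT+ less that in THY1+). It was above 0 for all 37 members, with a median of 1.08 against 0.004 over all genes, and no member was called in either direction, where 0.00447% of all genes were called higher and 0.0268% lower. There were 19 members and 22.4% of all genes at an unadjusted p under 0.05, and the lowest adjusted p was 0.0737 (Fcer1g, 1.38 ± 0.21, limma). Without null KIT+ replicate 1, 8 members were called higher, against 2.87% of all genes in that fit. That fit gives more weight to null KIT+ replicate 3, where neutrophil genes summed to 146 FPKM. With the replicate as a block, which not all of these groups share by the pairing check, 12 were called higher, against 9.06% of all genes. Whether the genotype effect of the members differed between fractions thus depended on the fit.

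The third question was whether the members differed between Sox3 cKO and WT. As labelled, 36 of 37 members were called higher and none lower in cKO THY1+ (17.8% and 11.3% of all 21212 genes). In cKO KIT+ 36 were called lower and none higher (12.6% and 12.4%), with medians of 6.02 and -5.72. The labelled fractions differed by medians of 5.97 in WT and -5.88 in cKO libraries, and the WT fraction labels went against Thy1 and Kit, so genotype and fraction cannot be told apart in them. Csf1r shows the pattern, at 63.1 ± 1.86 FPKM (SD, n = 3) in cKO THY1+, 2.42 ± 0.220 in WT labelled THY1+, 2.13 ± 0.128 in cKO KIT+ and 56.2 ± 7.79 in WT labelled KIT+. The comparison averaged over fractions, which weighs all 6 WT libraries alike, does not depend on which WT label is right. There Ptprc (0.60 ± 0.11, limma adjusted p = 0.00541) and Mpeg1 (0.77 ± 0.18, adjusted p = 0.0114) were called higher and Lst1 lower (-0.96 ± 0.29, adjusted p = 0.0313), against 7.49% and 2.83% of all genes. Ptprc and Mpeg1 differed by 1.07 and 1.30 between cKO KIT+ and WT labelled THY1+, the groups low in Thy1. Between cKO THY1+ and WT labelled KIT+, the groups high in Thy1, they differed by only 0.12 and 0.23, and neither was called. Ptprc was at a mean of 0.0693 FPKM in WT labelled THY1+, under the added 0.1. The groups low in Thy1 hold only 2, 0 and 0 reads of Lst1 in cKO and 6, 2 and 1 in WT, and those high in Thy1 differed by -0.36 ± 0.40 (limma adjusted p = 0.719). The median was 0.23, against 0.025 over all genes, with 31 of 37 above 0. Without cKO THY1+ replicate 3 or cKO KIT+ replicate 3 the count was 1 (9.83% and 9.58% of all genes in either direction), and without cKO KIT+ replicate 1 it was 5 (9.28%).

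Groups alike in Thy1 and Kit were also compared, a choice made with those values known. Between cKO THY1+ and the WT libraries labelled KIT+, the groups high in Thy1, no member was called. At an unadjusted p under 0.05 there were 2 members and 13.2% of all genes, with a median of -0.06 and a range of -0.61 (Folr2) to 0.56 (Stab1). Over all genes 0.00471% were called higher and 0.0660% lower. C1qa was at 190, 159 and 165 FPKM in cKO and 203, 178 and 159 in WT, Lyz2 at 391, 325 and 325 and at 438, 385 and 277, and Cd74 at 12.8, 20.4 and 9.64 and at 12.3, 15.1 and 11.7, and each pair of groups overlapped. The summed level was 1946 ± 126 FPKM in cKO and 2072 ± 216 in WT (SD, n = 3). Folr2 was lower in each cKO library (14.3, 17.2 and 14.3 FPKM) than in each WT library (21.8, 27.3 and 21.1) without passing the threshold (-0.61 ± 0.22, limma adjusted p = 0.313).

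Between the groups low in Thy1, cKO KIT+ and the WT libraries labelled THY1+, 13 members were called higher and 2 lower, where 12.4% of all genes were called higher and 4.57% lower. Apart from Irf8, these members were lower here than in the groups high in Thy1. Ptprc was at 0.249, 0.223 and 0.297 FPKM in cKO KIT+ and 0.0781, 0.0538 and 0.0759 in WT (1.07 ± 0.16, limma adjusted p = 0.00253). Mpeg1 was at 3.81, 2.92 and 2.34 FPKM against 1.60, 1.02 and 0.922 (1.30 ± 0.25, adjusted p = 0.00564). Mrc1 was at 0.786, 0.654 and 0.753 FPKM against 0.459, 0.260 and 0.373 (0.86 ± 0.15, adjusted p = 0.00379). For these 3 genes each cKO library was above each WT library, as it was for Fcer1g (0.796, 1.06 and 1.06 FPKM against 0.627, 0.367 and 0.462) and Irf8 (7.38, 4.41 and 4.33 against 3.92, 2.05 and 2.76).

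The other members called higher were Lyz2 (1.52), Tyrobp (1.1), Folr2 (1.08), Fcgr2b (0.89), Ms4a7 (0.85), F13a1 (0.77) and Ccr2 (0.67), with C1qb. Ms4a7, F13a1 and Ccr2 were at means of 0.0480, 0.0463 and 0.0383 FPKM in WT, under the added 0.1. In cKO KIT+ they were at 0.167, 0.150 and 0.121. Tyrobp and Fcgr2b were at 0.360 and 0.115 FPKM in WT, so these calls rest on low values. C1qb had 3, 1 and 2 reads in cKO KIT+ and 3, 0 and 0 in WT, so both groups were at or under 3 reads per library and no fold is given. The members called lower were Cd14, at 0.338, 0.323 and 0.430 FPKM in cKO against 0.818, 0.748 and 0.612 in WT (-0.83 ± 0.21, limma adjusted p = 0.0147), and Lst1 (adjusted p = 0.0176). Lst1 rested on 2, 0 and 0 reads against 6, 2 and 1, so no fold is given for it either. Class II genes were not called, from 0.22 (H2-Ab1) to 0.67 (Cd74).

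**Figure D5:**
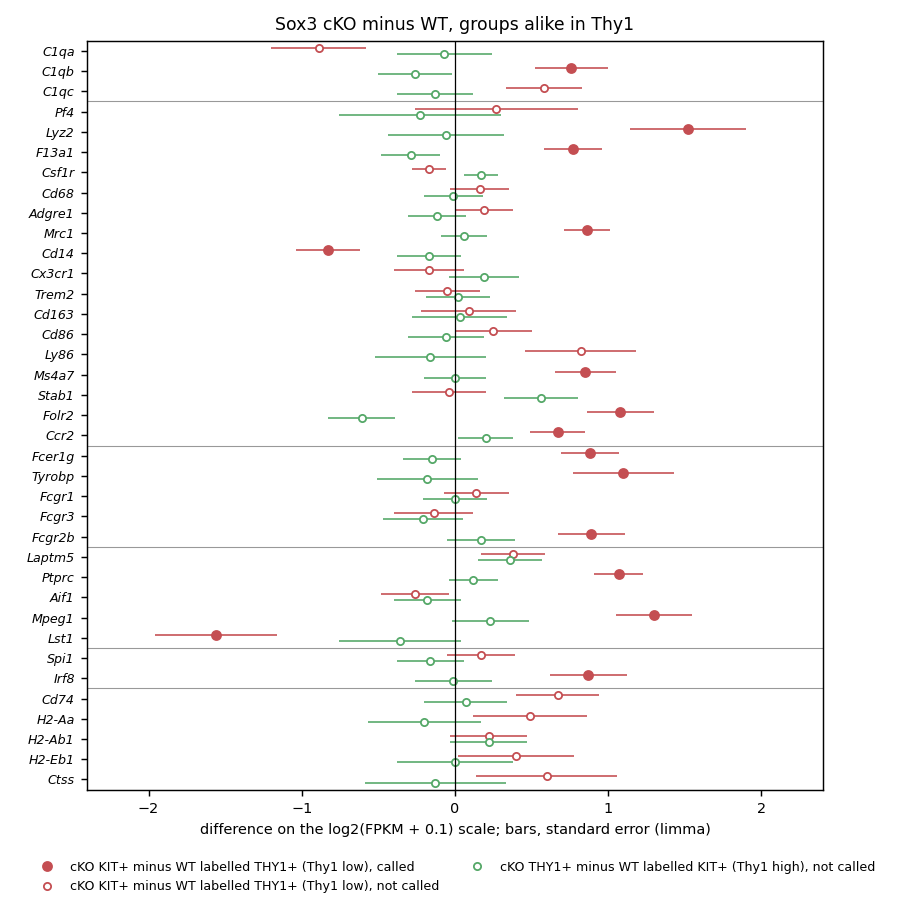
Difference of each member between Sox3 cKO and WT on the log2(FPKM + 0.1) scale, for the groups low in Thy1 (red, cKO KIT+ minus WT labelled THY1+) and high in Thy1 (green, cKO THY1+ minus WT labelled KIT+), with limma standard errors as bars; filled points are called. Differences in the groups high in Thy1 run from -0.61 to 0.56 with none called, and 15 are called in the groups low in Thy1. Of these, C1qb and Lst1 rest on at most 6 reads per library. Ptprc, F13a1, Ms4a7 and Ccr2 have means under 0.1 FPKM in WT labelled THY1+.

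Other markers moved with this last comparison too. Neutrophil genes summed to 3.22, 93.4 and 46.1 FPKM in cKO KIT+ replicates 1 to 3 and to 1.06 to 7.32 in WT labelled THY1+, and Camp of 6 was called higher. Leydig genes summed to 2493 to 4941 FPKM against 1239 to 2004, with 5 of 6 called higher, and endothelial genes to 33.5 to 52.5 against 15.9 to 22.0, with 5 of 6 called higher. Of the germ cell genes 3 of 6 were called lower, and 2 of 6 dendritic cell and 1 of 5 red cell genes were called higher, with none called among T, B, NK, mast, monocyte or Sertoli genes. In cKO KIT+ replicate 1, where the neutrophil sum was 3.22 FPKM, Ptprc was within the range of the other replicates. Mpeg1, Mrc1 and Irf8 were above that range, and Fcer1g was below it, at 0.796 FPKM against 1.06 and 1.06. Over all members, replicate 1 was the highest of its group for 17 and the lowest for 11. The part of these cells in the members' levels was not tested. Other resident macrophage genes gave 6 of 18 called higher, against 12.4% of all genes, among them Mertk (1.26), Gas6 (1.28) and Axl (1.02). Mertk was at a mean of 7.32 FPKM in cKO KIT+ and 3.01 in WT labelled THY1+, whereas Msr1 of the same list was at 0.0388 and 0.00523. Both ligands of CSF1R were called higher, Csf1 by 1.02 and Il34 by 1.0.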

How the data were processed

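The authors depleted ribosomal RNA, made stranded libraries, sequenced single reads and aligned them to mm10 with Novoalign. Every placement of a read was kept up to a limit, so a read of near-identical genes may count for each. How such reads were counted is not stated. They computed FPKM with USeq, and FPKM is the unit of both deposited tables. The strand setting of the counting is not given in the sources used here. The authors tested with DESeq2, which needs counts, so limma 3.58.1 (R 4.3.3, statmod 1.5.0) was used on log2(FPKM + 0.1) with the study's thresholds. The added 0.1 understates changes of low genes.

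Tested genes had a mean of at least 0.1 FPKM in the 12 libraries of their table (22374 and 21212). A model of 4 group means was fitted to each table (lmFit, eBayes with trend and robust settings), and p-values were adjusted over all genes within each of 12 comparisons. Tests were two-sided and the fit was tested on simulated data. Groups came from the labels alone. Reads per value were recovered from the steps of low values (79.5% to 85.1% within 0.05 of a whole number), and a group at 3 reads or fewer in every library gives a bound, for counting error only.

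Replicate numbers were taken to pair groups where the correlation of deviations exceeded 0.1 in all 3 pairs (0.144 to 0.595 for null and WT THY1+, 0.461 to 0.636 for null and WT KIT+). Alternatives were other added values, filters, scaling, a replicate block and leaving out libraries. The 37 members and the 20 lists of other genes were chosen with earlier results of these data known. All members are named by role. Values in every library are given for the highest member of each role in WT THY1+, for members called between genotypes and for those singled out.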

Additional observations from a re-analysis of the deposited data

Results flagged for a closer look

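For 36 of the 37 members the difference between fractions, as labelled, ran in opposite directions in the WT and cKO libraries of the Sox3 table: every WT library labelled KIT+ was above every one labelled THY1+, and every cKO KIT+ library was below every cKO THY1+ library. The same opposition without overlap was found for 25.0% of all 21212 genes. The difference between the fraction contrasts of the genotypes was not itself tested, and Thy1 and Kit go against the labels of the WT libraries. Irf8 was the member without it.

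For 3 members, Fcer1g, Fcgr3 and Lst1, every null library was below every WT library in THY1+ and above every WT library in KIT+, a pattern seen in 1.54% of all 22374 genes tested. Without a block the interaction did not pass the threshold for any of the 3 (limma adjusted p = 0.0737, 0.0938 and 0.0944), with differences of 1.38 ± 0.21 for Fcer1g and 1.38 ± 0.34 for Fcgr3 on the log2 scale. With the replicate block all 3 passed (limma adjusted p = 0.0148, 0.0323 and 0.0402), and without null KIT+ replicate 1 so did Fcer1g and Fcgr3 (limma adjusted p = 0.0405 and 0.0486). The latter fit gives more weight to null KIT+ replicate 3, where neutrophil genes summed to 146 FPKM. In KIT+ the levels were low: Lst1 stood on 3, 2 and 2 reads in WT and 4, 4 and 10 in null libraries.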

How the results depend on the processing

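Counts of members called between fractions stayed within 1.5 times of those given under each alternative tried, as did those of the comparisons as labelled in the Sox3 table. Between null and WT in THY1+, the 2 members called lower became 13 with 1 added to FPKM in place of 0.1, 12 with the replicate block, 4 when only the 6 libraries compared were fitted, and 0 to 11 when 1 library was left out. Of these leave-outs, null replicate 2 gave 11, and WT replicate 2, null replicate 1 and null replicate 3 gave 0. Cd68 and Fcer1g were each called in 10 of 14 settings. In KIT+ the 0 called became 2 with the replicate block. For the interaction, whose groups are not all paired by the check, 0 became 1 with 1 added and 12 with the replicate block, and 0 to 8 when 1 library was left out, with 8 without null KIT+ replicate 1. Averaged over fractions in the Sox3 table, 3 became 0 with 1 added, 6 with 0.01 added, 1 from replicates 2 and 3 alone and 1 to 5 with 1 library left out, with 1 without cKO THY1+ replicate 3 or cKO KIT+ replicate 3 and 5 without cKO KIT+ replicate 1. Between cKO KIT+ and WT labelled THY1+, 15 became 4 with 1 added, 4 from the 6 libraries alone (26 members tested), 8 from replicates 2 and 3 alone and 11 to 14 with 1 library left out. The cause of these changes was not tested, except that fewer members or libraries entered some fits. No result reversed its direction. The block changed no other call by over 1.5 times.

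Counts over all genes moved as well. Between null and WT in THY1+ 607 higher and 283 lower became 976 and 1004 with the block, which moves the share of lower calls, and 353 and 212 with 1 added. In KIT+ 43 and 15 became 351 and 162 with the block, and for the interaction 1 and 6 became 2027 and 729. The C1q genes, Trem2, Fcgr1 and Lst1, among others, rest on few reads in groups low in Thy1. Pf4 was at 0 FPKM in a library of each of these groups, and Adgre1, Cd86 and Ctss were in one of WT labelled THY1+. For C1qb, 3 reads are worth 0.185 to 0.251 FPKM in replicates 2 and 3 of the Sox3 table, which limits what can be read from such values.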
